A study of Caenorhabditis elegans with 9 samples.

Results

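The comparison described here set 3 RNA-seq libraries of nas-38(ok3407) larvae against 6 control libraries, 3 of nas-38(tm2655) and 3 of wild type, taken as 1 control group. Its members were all 46699 genes of the deposited table of total gene reads. Of these, 16055 had enough reads to be tested and 24799 had no read in any library. The ok3407 animals were strain HBR1010, the tm2655 animals strain HBR1114 and the wild type animals N2, so that each allele was represented by 1 strain and an effect of the allele cannot be told apart from one of the strain. All were whole C. elegans larvae in L4 lethargus, picked by hand while asleep, after bleach synchronisation and growth at 20 °C on the bacterium E. coli OP50. The series title spells the allele ok4307, whereas the sample labels spell it ok3407, the spelling used here. Names of sheets and column headers in the deposited tables abbreviate ok3407 as gof (gain of function) and tm2655 as lof (loss of function). A library held 26.1 to 40.5 M gene reads in ok3407 and 13.8 to 32.9 M in the controls.

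The gene nas-38 encodes a secreted zinc metalloprotease of the astacin family, enzymes that cut proteins outside cells or in the extracellular matrix. Lethargus is the sleep-like quiet phase that precedes each larval molt, when the epidermis lays down a new cuticle of collagens, cuticlins and other matrix proteins and prepares to shed the old one. The nematode epidermis also secretes small antimicrobial peptides, among them the nlp-29 group and the caenacins, which are known to be induced by fungal infection and wounding.

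The mutated gene itself was read first (X:558190-563629, in the coordinates of the deposited tables). Transcripts of nas-38 stood at 227, 375 and 337 CPM (reads per 1 M gene reads, with each total scaled by its TMM factor) in ok3407 libraries, against 10, 14.4 and 7.56 CPM in tm2655 libraries and 134, 57.9 and 65.1 CPM in wild type libraries. Every ok3407 library therefore lay above all 6 controls, and the lowest was 1.69-fold above the highest control, a wild type library. The 6 controls had a mean of 48.2 ± 49.0 CPM (SD, n = 6), because the tm2655 and wild type libraries did not overlap. The pooled log2 fold change was 2.71 ± 0.81 (SE), with an adjusted p of 0.0693 by edgeR's quasi-likelihood test with Benjamini-Hochberg adjustment, so nas-38 was not called. With tm2655 and wild type kept apart in a 3-group fit, the log2 fold change was 4.87 against tm2655 (adjusted p = 0.00113) and 1.87 against wild type (adjusted p = 0.0265). The files give no position of reads within the gene, so whether they cover a part changed by either allele was not examined.

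Across all genes, 814 were higher in ok3407 and 817 lower at an adjusted p under 0.05, which is 5.07% and 5.09% of those tested. A change was said to hold against all 6 controls when it was called and no ok3407 library fell within the range of the 6 control libraries. This was so for 737 higher genes (4.59%) and 760 lower genes (4.73%), or 90.5% and 93.0% of the calls. Without any test, all 3 ok3407 libraries lay above all 6 controls in 1197 genes (7.46%) and below them in 1318 (8.21%). The rises that held were larger, with a median log2 fold change of 1.37, than the falls, with a median of -0.72. At least a doubling was fitted for 494 of the rises, and at least a halving for 225 of the falls, while 59 rises and 8 falls passed 4 on the log2 scale. The rises also started from lower levels, with a median of 9.06 CPM in the controls, against 77.98 CPM for the falls and 13.2 CPM for all tested genes. Of the 16055 genes, 560 did not reach the filter on low counts in 3 control libraries and were tested because of ok3407 libraries, and 82 of the 814 higher calls were among these. Of the 817 lower calls, 31 did not reach it in the 3 ok3407 libraries. Inside the control group, tm2655 against wild type gave 1 called gene, cal-6 (0.00623% of those tested), and 397 genes at an unadjusted p under 0.05 by the 3-group fit.

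The libraries also differed in measures other than single genes. Intron reads made up 9.9% to 11.41% of gene reads in ok3407 libraries, against 8.78% to 9.34% in the controls, and the reads deposited as unique 95.04% to 96.04%, against 93.71% to 94.83%. The TMM factors, which correct for the makeup of a library, were 1.08 to 1.11 in ok3407 and 0.88 to 1.03 in the controls. Under scaling by total reads alone the median log2 fold change of all genes moved to 0.21, from 0.02 with TMM factors, and the calls became 1286 higher and 385 lower, so that 77.0% of calls were higher instead of 49.9%. The part of these differences in the results was not tested.

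**Figure D1:**
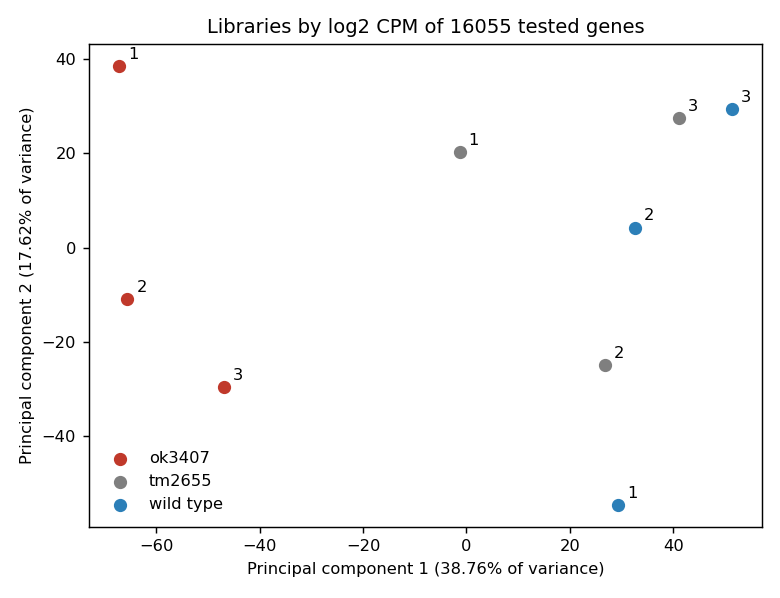
Principal components of the 9 libraries, from log2 CPM of the tested genes, with replicate numbers beside the points and group by colour. The 3 ok3407 libraries lie at -67.14 to -46.98 on the first component (38.76% of the variance), tm2655 replicate 1 at -1.33, and the other 5 controls at 26.75 to 51.34.

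The first principal component placed the ok3407 libraries on one side and the controls on the other, with tm2655 replicate 1 nearest to ok3407. On the third component (11.93% of the variance), not plotted, that replicate lay at 66.1 and the other libraries at -20.06 to 5.32. Tm2655 replicate 1 was also the control closest to ok3407 in 35.3% of the rises that held and 35.8% of the falls. Among ok3407 libraries, replicate 3 was the one closest to the controls, in 52.2% of the rises and 57.6% of the falls.

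The largest rise among genes with a mean of at least 5 CPM that held was another astacin, nas-10. It had 247, 124 and 95 CPM in ok3407 libraries, against 0.525, 0.165 and 0.103 CPM in tm2655 and 3.0, 0 and 0.79 CPM in wild type. The nearest libraries were 31.6-fold apart, the widest gap of all rises at that level, and the log2 fold change was 8.07 ± 0.88 (adjusted p = 0.000784). Next to it in gap was C45B2.3 on chromosome X, a gene named only by its sequence, with 67.4, 65.9 and 72.7 CPM in ok3407, against 2.13, 1.22 and 0.65 CPM in tm2655 and 1.58, 0.859 and 1.26 CPM in wild type. Its 3 ok3407 values were nearly the same, and its log2 fold change was 5.76 ± 0.28 (adjusted p = 6.91e-06).

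Several of the other genes at the top encode small secreted or defence-related products. The fungus-induced peptide gene fip-6 had 138, 202 and 56.3 CPM in ok3407, against 1.21 to 4.19 CPM in the controls (log2 fold change 5.92 ± 0.45, adjusted p = 0.000201). The caenacin cnc-2 had 123, 102 and 49.3 CPM in ok3407, against 0.978 to 4.11 CPM in the controls (5.54 ± 0.45, adjusted p = 0.000247). Both had no ok3407 library within a factor of 10 of any control. The invertebrate-type lysozyme gene ilys-3, whose product digests bacterial walls, had 103, 22.3 and 37.4 CPM in ok3407, against 0.0592 to 4.09 CPM in the controls (5.44 ± 0.89, adjusted p = 0.00602). The insulin-like peptide gene ins-20 had 11.6, 20.2 and 13.7 CPM in ok3407, against 0.132 to 1.26 CPM in the controls (5.29 ± 0.52, adjusted p = 0.000347).

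Among abundant genes, ora-1 had 563, 828 and 334 CPM in ok3407, against 17.8 to 32.1 CPM in the controls, a log2 fold change of 4.47 ± 0.26 (adjusted p = 2.23e-05). F58G1.7 had 98.1, 65.3 and 55.5 CPM in ok3407 and 3.07 to 4.43 CPM in the controls, with a small error (4.44 ± 0.18, adjusted p = 2.14e-06). In both, the controls varied little and the groups lay far apart. The remaining genes of this set were F32G8.3, F12A10.9, C30B5.6, F57H12.6 and lmd-4, the last of which encodes a protein with a LysM domain, a fold that binds chitin and related sugars. Their log2 fold changes were 4.76 to 6.37, and each was called in all 9 fits that left out 1 library.

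**Figure D2:**
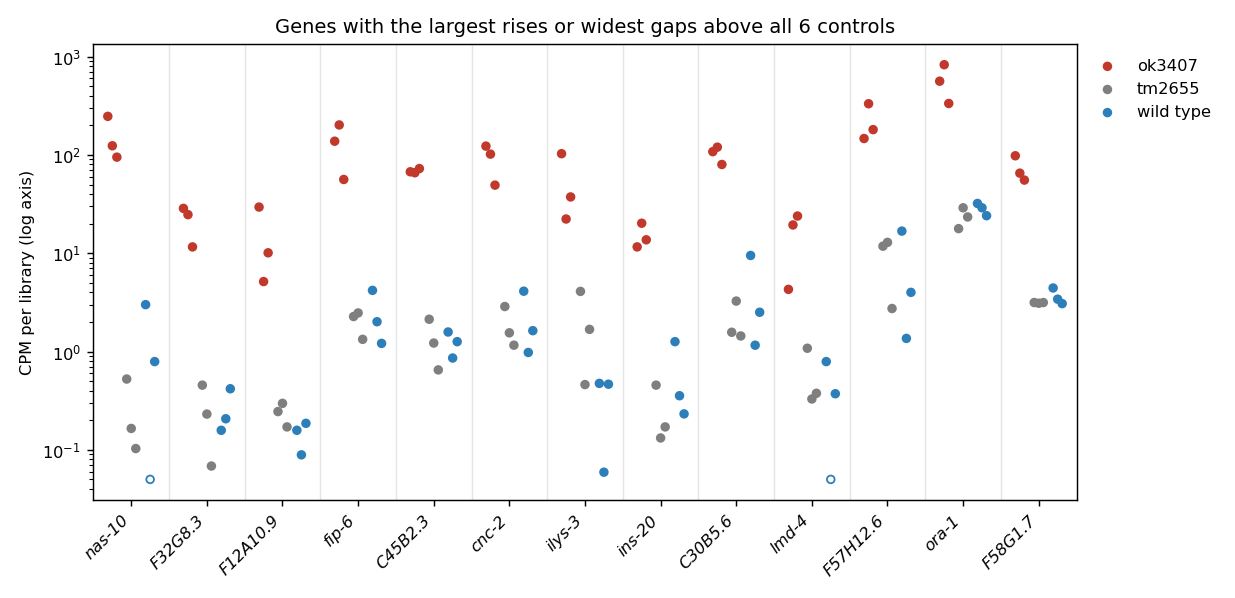
CPM in each library (log axis) for the genes with the largest rises or the widest gaps above all 6 controls, with ok3407, tm2655 and wild type side by side. Open circles at the bottom mark libraries below 0.05 CPM. In every gene shown the 3 ok3407 points lie above all 6 controls, from 31.6-fold for nas-10 downward.

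Among the largest falls that held, pgp-1 and several collagens were abundant in the controls. The gene pgp-1 encodes an ABC transporter of the P-glycoprotein type and had 22.4, 222 and 108 CPM in ok3407, against 500 to 1060 CPM in the controls (log2 fold change -2.69 ± 0.62, adjusted p = 0.0263). Its 3 ok3407 values spanned a wide range, yet the highest was still under all controls. Without ok3407 replicate 3 its adjusted p was 0.0836, and it was not called without tm2655 replicate 2 either. The collagen gene col-179 had the widest gap, with 68.8, 55.9 and 99 CPM in ok3407, against 354, 399 and 563 CPM in tm2655 and 363, 431 and 584 CPM in wild type (-2.59 ± 0.25, adjusted p = 0.000282). C39D10.8 had 1.53, 4.26 and 4.7 CPM in ok3407, against 15.7 to 32.3 CPM in the controls (-2.67 ± 0.37, adjusted p = 0.00173).

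The largest fitted fall, ZK218.5, rested on uneven controls. It had 0.426, 0.0294 and 0 CPM in ok3407, against 0.979, 25.4 and 11.7 CPM in tm2655 and 6.72, 37 and 47.3 CPM in wild type, so that tm2655 replicate 1 lay close to ok3407 (-7.34 ± 1.58, adjusted p = 0.0203). Its adjusted p reached 0.0938 without ok3407 replicate 2, and it was not called without ok3407 replicate 3 either. The dienoyl-CoA reductase gene decr-1.1, of a family that acts in the breakdown of unsaturated fatty acids, had 0.993, 0.853 and 9.34 CPM in ok3407 and 15.5 to 55.5 CPM in the controls. Its log2 fold change was -3.30 ± 0.84 (adjusted p = 0.0378), and it was called only without ok3407 replicate 3 or wild type replicate 1 among the 9 fits that left out 1 library (adjusted p up to 0.111). Reads of Y45G12C.4 and col-126 were 1.86% and 0.255% unique and those of col-124 12.6%, so that these falls cannot be assigned to 1 gene. The other falls of this set were in grl-27, K09C4.5, clec-169, abu-4, nspb-6, col-19, col-137, C17H12.8 and C04E12.4. Of these, nspb-6, col-19 and C04E12.4 were called in all 9 such fits, while K09C4.5 was called in 3 of them, clec-169 in 5 and abu-4 in 6.

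**Figure D3:**
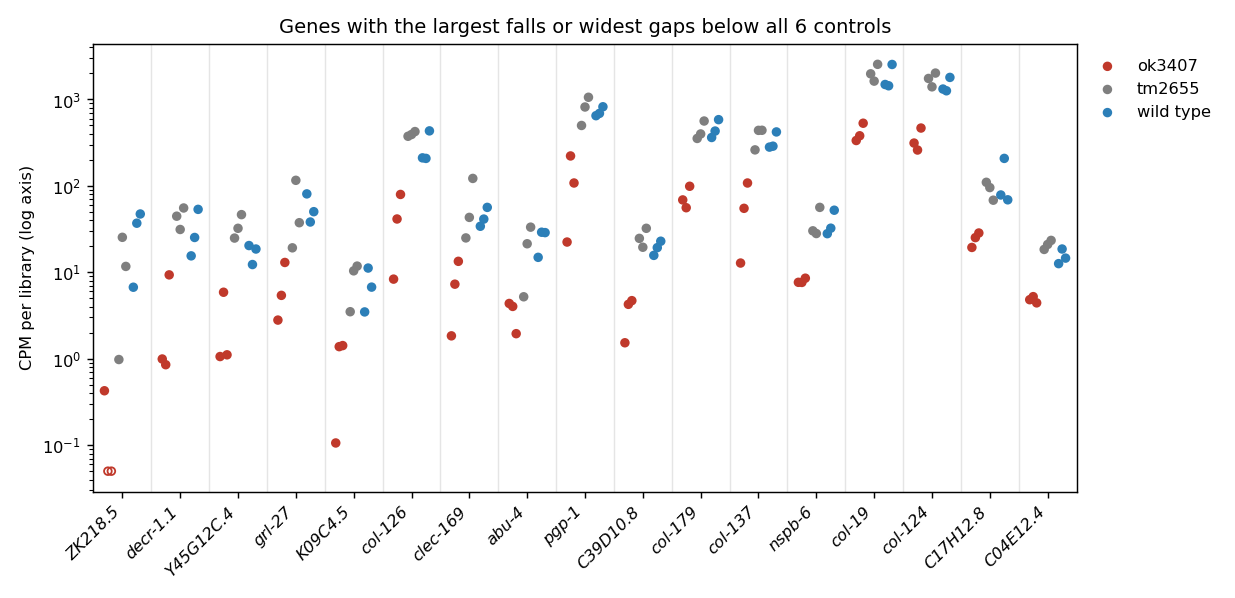
CPM in each library (log axis) for the genes with the largest falls or the widest gaps below all 6 controls, with ok3407, tm2655 and wild type side by side. Open circles at the bottom mark libraries below 0.05 CPM. The ok3407 points of a gene lie below all of its controls, and they span 22.4 to 222 CPM in pgp-1, against 7.64 to 8.55 CPM in nspb-6.

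Epidermal antimicrobial peptide genes were higher in ok3407 as a group. Of 10 tested genes of the epidermal nlp peptides, 7 rose and 0 fell, against 5.07% and 5.09% of all genes, and all 7 rises held against all 6 controls. The same shares of all genes are the background for the counts of every gene group below. The median log2 fold change of the nlp peptides was 2.12, against 0.02 over all genes. The peptide gene nlp-29 had 487, 312 and 211 CPM in ok3407, against 79.2, 23.4 and 12.3 CPM in tm2655 and 45.7, 14.8 and 30.2 CPM in wild type (3.30 ± 0.55, adjusted p = 0.00657). The gene nlp-34, near it on chromosome V, had 203, 170 and 121 CPM in ok3407, against 6.19 to 22.8 CPM in the controls (4.03 ± 0.41, adjusted p = 0.00062). The genes nlp-30, nlp-31, nlp-25, nlp-27 and nlp-33 rose by 3.38, 3.25, 2.34, 1.91 and 0.95 on the log2 scale. The 7 calls were made in each of the 9 fits that left out 1 library. Against tm2655 alone 5 of the peptide genes were called, and against wild type alone 5. Not called against the 6 controls were nlp-26 at 0.03, nlp-28 at -0.09 and nlp-24 at -0.47 (adjusted p = 0.286).

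Caenacins, glycine-rich peptides of the same epidermal defence, showed the same direction. Of 5 caenacins that passed the filter on low counts in control libraries, cnc-2, cnc-4, cnc-7, cnc-8 and cnc-10, all rose with every rise outside the range of the controls. Another 5, cnc-1, cnc-3, cnc-6, cnc-9 and cnc-11, were tested because of their reads in ok3407, which fixes their direction, and 3 of them were called. The gene cnc-4 had 136, 160 and 107 CPM in ok3407, against 4.34 to 25.8 CPM in the controls (3.38 ± 0.49, adjusted p = 0.0034). The gene cnc-10 had 56.3, 52.2 and 38.4 CPM in ok3407, against 4.98 to 13.4 CPM in the controls (2.65 ± 0.30, adjusted p = 0.000749). At low levels, cnc-9 had 2.52, 18.9 and 15.3 CPM in ok3407, against 0 to 0.237 CPM in the controls (7.59 ± 0.74, adjusted p = 0.000347). For cnc-6, 163 reads in ok3407 stood against 0 reads in the 6 controls, at least 79.7-fold higher when 3 reads are allowed over the control group. For cnc-1 the ratio was 192 with a counting interval of 65.3 to 936, from 393 reads in ok3407 against 3 in the controls. The gene cnc-7 rose by 3.94, and cnc-8, which lay 0.04 on the log2 scale above its nearest control, by 0.76. Neither was called without ok3407 replicate 2 (adjusted p = 0.069 for cnc-7), nor cnc-8 without ok3407 replicate 1 (adjusted p = 0.0699). The genes cnc-3 (1.73, adjusted p = 0.357) and cnc-11 (3.76, adjusted p = 0.0525) were not called.

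Other defence gene families moved less. Of 22 fungus-induced peptide genes 2 rose, fip-6 and fip-5 (5 without tm2655 replicate 1), and the median was -0.04 (0.15 with total library size). The gene fip-5 had 162, 89.4 and 72 CPM in ok3407 and 6 to 12.6 CPM in the controls (3.67 ± 0.27, adjusted p = 9.4e-05). Of 13 lysozymes 2 rose, ilys-3 and ilys-4, and 4 fell, ilys-5, lys-2, lys-4 and lys-6. The count of lysozymes that rose was 1 without ok3407 replicate 2 or 3 or wild type replicate 3, and 4 without tm2655 replicate 1. The count that fell was 0 without ok3407 replicate 2, where lys-4 had an adjusted p of 0.0695. It was 1 without ok3407 replicate 3 or tm2655 replicate 2, and 2 when any single wild type library was left out. The gene lys-4 had 138, 120 and 136 CPM in ok3407 and 262 to 720 CPM in the controls (-1.63 ± 0.33, adjusted p = 0.014). Of 140 C-type lectins, which bind sugars, 5 rose and 9 fell, and of 20 caenopores and antibacterial factors 1 rose, spp-10, and 2 fell, spp-3 and spp-4, of which 1 held. These shares lay nearer to those of all genes. For the lectins, 4 rises and 9 falls held. Among the lectin rises clec-232 was tested because of its reads in ok3407, and 1 lectin fall did not reach the filter on low counts in the 3 ok3407 libraries. The counts of both lists also moved with single libraries. The lectins that fell numbered 3 without ok3407 replicate 1 or tm2655 replicate 2, 4 without ok3407 replicate 2 or wild type replicate 3, 6 without tm2655 replicate 3 and 14 without tm2655 replicate 1, and those that rose 1 without ok3407 replicate 2 and 3 without ok3407 replicate 1, tm2655 replicate 3 or wild type replicate 2. Of the caenopores 0 fell without ok3407 replicate 1 or 2, tm2655 replicate 2 or wild type replicate 3. From the intracellular pathogen response, a gene set induced by microsporidia and a virus, 2 of 8 rose, of which B0284.2 was tested because of its reads in ok3407. They were B0284.1 and B0284.2, which lie on either side of B0284.3, with log2 fold changes of 4.93 ± 0.80 and 5.48 ± 0.80.

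The regulators known to switch on these peptides moved less than the peptides. Of 24 genes of epidermal immune signalling 4 rose and 1 fell. Those that rose were tir-1, an adaptor upstream of the kinase cascade (0.88 ± 0.14), tpa-1, a protein kinase C (0.36 ± 0.09), vhp-1, a phosphatase that restrains the cascade (0.69 ± 0.16), and dcar-1, a receptor (0.49 ± 0.13). The number that rose was 2 without ok3407 replicate 2 or wild type replicate 3, 1 without ok3407 replicate 3 and 6 without tm2655 replicate 1. The call for dcar-1 did not hold, since its lowest ok3407 library, at 58.7 CPM, was under a tm2655 library at 62.5 CPM. The gene that fell was elt-3, an epidermal GATA factor, at 13.4, 12.3 and 18.1 CPM in ok3407 and 23 to 36 CPM in the controls (-0.93 ± 0.18, adjusted p = 0.0111). The STAT-like factor gene sta-2 was at 30.5, 20.2 and 16.2 CPM in ok3407, against 22.3, 7.71 and 9.54 CPM in tm2655 and 9.25, 7.7 and 8.04 CPM in wild type, and was not called (1.05 ± 0.36, adjusted p = 0.0949). The transporter gene snf-12 was not called either (0.16 ± 0.19, adjusted p = 0.643).

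In the DBL-1 pathway, a TGF-beta pathway that sets body size and also acts on caenacins, 4 of 14 genes rose and 0 fell. The receptor gene sma-6 rose by 0.66 ± 0.18, the Smad genes sma-3 and sma-4 by 0.66 ± 0.15 and 0.77 ± 0.18, and crm-1, whose product promotes the signal, by 0.67 ± 0.18. The groups lay close, with the lowest ok3407 library of sma-6 at 19.4 CPM and the highest control at 19.3 CPM. The ligand gene dbl-1 was at 8.44, 6.73 and 8.07 CPM in ok3407 and 7.76 to 9.42 CPM in the controls, and was not called (-0.16 ± 0.15, adjusted p = 0.554). The count was 1 without ok3407 replicate 1, ok3407 replicate 2, tm2655 replicate 2 or wild type replicate 3, and 2 without wild type replicate 1 or 2.

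**Figure D4:**
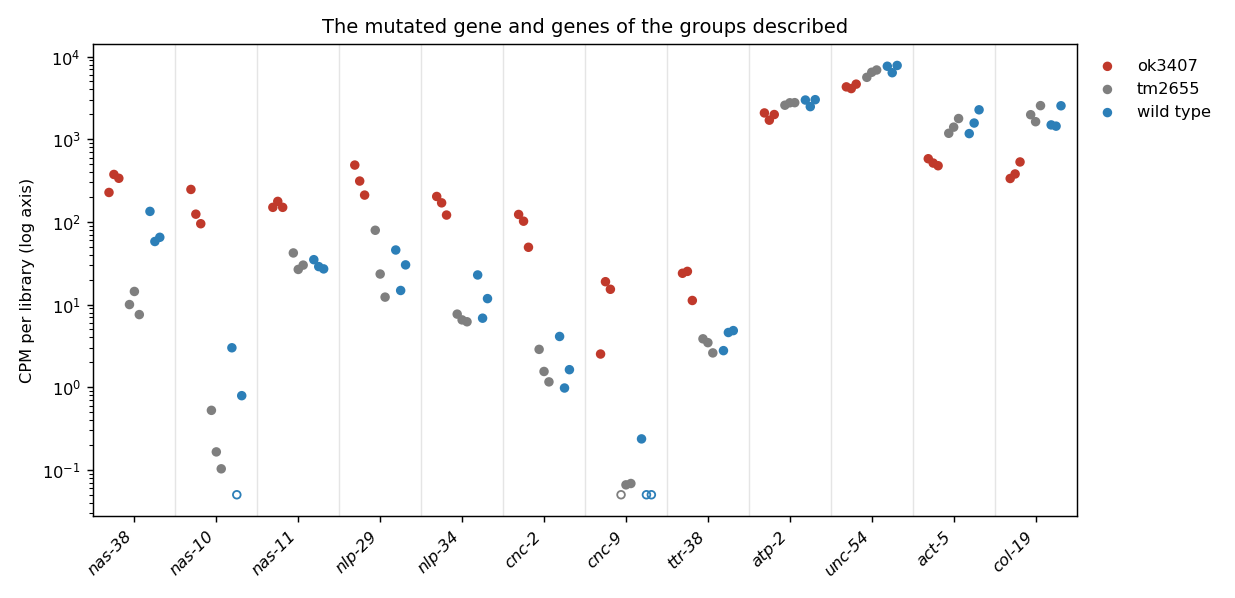
CPM in each library (log axis) for nas-38 and genes from the groups described, with ok3407, tm2655 and wild type side by side. Open circles mark libraries below 0.05 CPM. The astacin, antimicrobial peptide and transthyretin-like genes lie higher in ok3407 than in all 6 controls, and atp-2, unc-54, act-5 and col-19 lie lower.

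Of the 30 tested astacin proteases, which include nas-38, 5 rose and 1 fell. The gene nas-11 was as even as any, with 150, 177 and 150 CPM in ok3407, against 42.1, 26.6 and 30 CPM in tm2655 and 34.9, 28.8 and 27 CPM in wild type (2.33 ± 0.14, adjusted p = 2.14e-05). The gene nas-33 had 8.02, 83.6 and 46.4 CPM in ok3407 and 2.24 to 4.07 CPM in the controls (3.90 ± 0.54, adjusted p = 0.00273). For nas-31 and nas-9 the log2 fold changes were 0.72 ± 0.17 and 1.36 ± 0.36. The lowest ok3407 library of nas-9, at 53.2 CPM, was barely above tm2655 replicate 1 at 53.1 CPM, and nas-9 was called in 1 of the 9 fits that left out 1 library, the one without that replicate. Without either ok3407 replicate 2 or tm2655 replicate 2 the number of astacins that rose was 3. The fall of nas-1 (-0.83 ± 0.22) did not hold, since 1 ok3407 library at 20.9 CPM was above a tm2655 library at 20.7 CPM. The genes nas-36 and nas-37, known for roles in shedding the cuticle, were not called, at 0.65 (adjusted p = 0.228) and 0.84 (adjusted p = 0.231).

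Among cuticle collagen genes, falls outnumbered rises. Of 149 tested, 34 fell and 7 rose, and every one of these calls held, with a median log2 fold change of -0.41 for the whole list, against 0.02 for all genes (-0.21 with total library size, where 26 fell and 11 rose). The shift was uneven between libraries. The list's median log2 ratio of a library to the median control, taken from CPM + 1, was -0.89, -0.26 and 0.02 in ok3407 replicates 1, 2 and 3, against -0.21 to 0.3 in the control libraries, so that replicate 3 lay within their range. Together the collagen genes took 37000 to 69900 CPM in ok3407 libraries and 78200 to 107000 CPM in the controls. Those that fell include col-19 and col-7, known as adult collagens. The gene col-19 had 335, 380 and 531 CPM in ok3407, against 1980, 1630 and 2550 CPM in tm2655 and 1490, 1440 and 2540 CPM in wild type (-2.22 ± 0.25, adjusted p = 0.000618). For col-7, of whose reads 35.0% were unique, the values were 228, 218 and 525 CPM in ok3407 and 570 to 1010 CPM in the controls (-1.22 ± 0.32, adjusted p = 0.0405, up to 0.138 in the fits that left out 1 library, of which 2 called it). Without ok3407 replicate 2, 18 collagen genes fell and 3 rose, and without tm2655 replicate 1, 36 fell and 11 rose. The blister collagen gene bli-6 fell by 1.51 and dpy-17 by 2.03 on the log2 scale.

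The rises ran against this. The gene col-113 had 1070, 1220 and 1050 CPM in ok3407, against 146, 216 and 182 CPM in tm2655 and 350, 182 and 212 CPM in wild type (2.37 ± 0.22, adjusted p = 0.000273). Both col-42 (2.19) and col-109 (1.41) were also abundant, and col-40, col-44, col-182 and col-183 rose by 2.12 to 4.62, of which col-40 and col-183 were tested because of their reads in ok3407. The 6 furrow collagens, which mark the circular furrows of the cuticle and are made early in a molt cycle, all had positive fold changes with a median of 2.29, but edgeR called 0 of them. At an unadjusted p under 0.05 there were 5, and DESeq2 and limma called 0. One of them, dpy-7, had 0.639, 2.47 and 18.3 CPM in ok3407 and 0.093 to 3.76 CPM in the controls (adjusted p = 0.231), so that ok3407 replicate 3 stood apart. In that library the 6 genes summed to 144 CPM, against 8.02 CPM in the lowest ok3407 library and 4.24 to 21.5 CPM in the controls. Genes of the adult-stage markers, col-19 and col-7 and the yolk genes vit-2, vit-5 and vit-6, summed to 4420 to 16000 CPM in ok3407 and 9840 to 23900 CPM in the controls, which overlap, and 2 of 5 fell, both collagens. The part of developmental stage within lethargus in these results was not tested.

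Genes that act in molting and in the precuticle, the temporary matrix under a new cuticle, were higher. Of 35 tested, 11 rose and 0 fell, all 11 held, and the median log2 fold change was 0.77. Among the 11, mltn-2 was tested because of its reads in ok3407. The gene mlt-3 had 88.7, 50.1 and 40 CPM in ok3407 and 7.42 to 15.5 CPM in the controls (2.49 ± 0.27, adjusted p = 0.00061). The endocytic receptor gene lrp-1, needed for molting, rose by 2.21 and the kinase gene nekl-2 by 1.19 ± 0.17. The protease inhibitor gene mlt-11 rose by 2.40, the fibrillin-like gene fbn-1 by 1.77, and the precuticle genes noah-1 and let-653 by 2.89 ± 0.59 and 2.22 ± 0.60. The count fell to 7 without ok3407 replicate 2 and to 5 without ok3407 replicate 3, and noah-1 had 13.3 CPM in 1 ok3407 library and 10.7 CPM in the nearest control. With 3 control libraries in place of 6 the count was 4 when these were tm2655 and 6 when they were wild type. Transcripts of the molting regulator nhr-23 were at 49, 40.1 and 46.6 CPM in ok3407 and 35.4 to 49.4 CPM in the controls, and were not called (0.07 ± 0.13, adjusted p = 0.773).

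Further matrix and epidermal genes moved in part. Of 30 cuticlins 4 rose and 3 fell, with cutl-15 at 174, 157 and 136 CPM in ok3407 and 12 to 29.5 CPM in the controls (3.06 ± 0.23, adjusted p = 0.000105). With total library size 0 of the cuticlins fell, and 0 to 4 fell in the fits that left out 1 library, while 2 rose without ok3407 replicate 2. Of 15 genes of collagen processing, 2 rose, bli-3 (0.57 ± 0.10) and tsp-15 (0.94 ± 0.23), whose products form the dual oxidase complex that crosslinks the cuticle, and phy-3 fell. The gene tsp-15 was not called without ok3407 replicate 1 or 2, tm2655 replicate 2 or wild type replicate 3. The gene phy-3 overlaps tni-3, and it was not called from exon reads only (adjusted p = 0.591). Of 46 hedgehog-related genes 4 rose and 3 fell, not far above the 5.07% and 5.09% of all tested genes. Among the rises grl-31 was tested because of its reads in ok3407, and of the falls 2 held. Of the hedgehog-related genes 0 fell without ok3407 replicate 1 or 2, and 1 without tm2655 replicate 2 or wild type replicate 3. Of 29 patched-related genes 5 rose, of which 4 held, and 1 fell, ncr-2, which did not hold. For the patched-related genes 8 rose without ok3407 replicate 1 and 3 without ok3407 replicate 2. Patched-related genes that rose include ptr-1, at 118 to 166 CPM in ok3407 and 7.45 to 36.4 CPM in the controls (2.78 ± 0.39, adjusted p = 0.0027). The chitinase gene cht-1 was the only call among 24 chitinases and chitin synthases, with 130, 31.4 and 11.2 CPM in ok3407 and 1.3 to 4.03 CPM in the controls (4.29 ± 0.64, adjusted p = 0.00388).

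Genes for epidermal attachment and junctions rose in 8 of 23 cases and fell in 0, and 7 of the rises held. Without ok3407 replicate 1 the number was 5. It was 4 with tm2655 as the only controls and 2 with wild type as the only controls. The 8 rises include dlg-1, a scaffold of the apical junction, at 129, 142 and 109 CPM in ok3407 and 58.1 to 78.8 CPM in the controls (0.87 ± 0.12, adjusted p = 0.0016). The intermediate filament gene mua-6 had 308, 356 and 381 CPM in ok3407, against 91.1, 113 and 124 CPM in tm2655 and 204, 102 and 186 CPM in wild type (1.35 ± 0.24, adjusted p = 0.00771). The cadherin gene hmr-1 and the alpha-catenin gene hmp-1 rose by 0.56 ± 0.10 and 0.77 ± 0.15. The fusogen genes eff-1 and aff-1, which fuse epidermal cells, were the 2 of 13 fusion and seam cell genes that rose, by 1.66 ± 0.19 and 1.90 ± 0.33. The 10 epidermis markers as a whole summed to 1650 to 1850 CPM in ok3407 and 1460 to 2000 CPM in the controls, with 3 higher and 1 lower, and none at 0 reads.

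Transthyretin-like genes, a large family of small secreted nematode proteins, rose in 15 of 55 cases and fell in 0, and 14 of the rises held. The median log2 fold change was 0.41 (0.59 with total library size), and the count was 13 to 18 in the fits that left out 1 library. Against tm2655 alone 4 of these genes rose, and against wild type alone 12. The gene ttr-45 had 359, 236 and 205 CPM in ok3407 and 66.2 to 111 CPM in the controls (1.71 ± 0.19, adjusted p = 0.000534). The gene ttr-38 had 23.9, 25.2 and 11.2 CPM in ok3407 and 2.6 to 4.84 CPM in the controls (2.44 ± 0.27, adjusted p = 0.00057). For ttr-33 the change was 2.05 ± 0.21, but 76.1% of its reads were unique and it overlaps mig-6.

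Muscle genes were lower, by small factors. Of 44 tested, 25 fell and 0 rose, 23 of the falls held, and 43 of 44 fold changes were negative with a median of -0.51. The myosin heavy chain gene unc-54 had 4300, 4100 and 4640 CPM in ok3407, against 5610, 6460 and 6880 CPM in tm2655 and 7640, 6380 and 7810 CPM in wild type (-0.64 ± 0.13, adjusted p = 0.0127). The troponin T gene tnt-3 had 147, 136 and 154 CPM in ok3407 and 222 to 295 CPM in the controls (-0.79 ± 0.12, adjusted p = 0.00281). Of the 10 body wall muscle markers, none at 0 reads, 9 fell and 8 of the falls held, and they summed to 9810 to 11600 CPM in ok3407 and 13400 to 18500 CPM in the controls. In whole animals, fewer cells of a type and less RNA per cell cannot be told apart. With total library size 17 fell and 1 rose, and the median was -0.30. The count of falls was 5 without ok3407 replicate 2, where unc-54 had an adjusted p of 0.0653, 8 without ok3407 replicate 1, 14 and 16 without tm2655 replicates 3 and 2, and 15 without either wild type replicate 1 or 3. With 3 control libraries in place of 6, 1 muscle gene fell when these were tm2655 and 9 when they were wild type.

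Intestinal genes moved in the same direction. Of 31 tested, 10 fell and 0 rose, all 10 held, and the median was -0.58. The gene act-5, the actin of intestinal microvilli, had 581, 515 and 478 CPM in ok3407, against 1180, 1400 and 1780 CPM in tm2655 and 1170, 1570 and 2270 CPM in wild type (-1.57 ± 0.22, adjusted p = 0.00178). The aspartic protease gene asp-3 had 1240, 1030 and 1280 CPM in ok3407 and 1560 to 2370 CPM in the controls (-0.73 ± 0.15, adjusted p = 0.0116). Of the 8 intestine markers, none at 0 reads, 2 fell, act-5 and asp-1, and the 8 summed to 3540 to 4070 CPM in ok3407 and 5590 to 8600 CPM in the controls. With total library size 6 fell and 1 rose. The count of falls was 3 without ok3407 replicate 2, where asp-3 had an adjusted p of 0.0609, and 5 without ok3407 replicate 3. With 3 control libraries in place of 6, 1 intestinal gene fell when these were tm2655 and 1 when they were wild type. Of 6 vitellogenins, yolk proteins made in the adult intestine, 1 fell, vit-3, of whose reads 43.5% were unique. The gene vit-3 was called in 2 of the 9 fits that left out 1 library, those without tm2655 replicate 1 or wild type replicate 2, and it was not called in the 3-group fit, without a filter or with the replicate block.

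Of the 45 gene lists, the one with the largest share of falls was the respiratory chain, the mitochondrial complexes that make ATP. Of 35 tested genes 26 fell and 0 rose, against 5.09% of all genes, every fall held against all 6 controls, and all 35 fold changes were negative. The changes were small, with a median of -0.52 (-0.33 with total library size, where 18 fell). The ATP synthase gene atp-2 had 2080, 1700 and 1990 CPM in ok3407, against 2580, 2760 and 2770 CPM in tm2655 and 2980, 2480 and 3010 CPM in wild type (-0.52 ± 0.11, adjusted p = 0.0175). The gene asg-2, for another ATP synthase subunit, had 90.3, 87.3 and 98.3 CPM in ok3407 and 139 to 184 CPM in the controls (-0.81 ± 0.11, adjusted p = 0.00152). The complex II gene sdha-1 had 114, 100 and 123 CPM in ok3407 and 161 to 222 CPM in the controls (-0.78 ± 0.13, adjusted p = 0.00456). Members of complex I (nuo-1, -0.53 ± 0.11) and complex III (isp-1, -0.44 ± 0.11) fell as well. The count was 11 without ok3407 replicate 2, where atp-2 had an adjusted p of 0.0871, and 22 to 27 when any other single library was left out. With 3 control libraries in place of 6, 4 genes fell when these were tm2655 and 9 when they were wild type. The summed muscle and intestine markers were also lower in all 3 ok3407 libraries than in all 6 controls, with 9 of 10 and 2 of 8 markers called, and their part in this result was not tested.

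Mitochondrial ribosomal protein genes fell in 15 of 63 cases with a median of -0.26, but this count depended on scaling and on single libraries. It was 2 with total library size, where the median was -0.06, and 2 without ok3407 replicate 2. It was 4 to 10 when any other single library was left out, except tm2655 replicate 1, where it was 19. Cytoplasmic ribosomal protein genes were all negative, with a median of -0.25 (-0.05 with total library size), and 4 of 79 fell (1 to 5 in the fits that left out 1 library), a share close to that of all genes. Of 12 mitochondrial stress genes 3 fell, hsp-60 (-0.56 ± 0.13), gpd-2 and ubl-5, and 0 rose. None fell without ok3407 replicate 2 or 3, and 1 without wild type replicate 3. With total library size 0 of these fell and the median changed sign, to 0.03 (-0.17 with TMM factors).

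Neuronal and germ line genes gave few calls. Of 28 neuronal genes 1 rose, unc-13, which was called in 4 of the 9 fits that left out 1 library, and 1 fell, eat-4, a glutamate transporter gene, of whose reads 65.5% were unique. The gene eat-4 overlaps ZK512.7 and was not called from exon reads only (adjusted p = 0.37). The 11 neuron markers summed to 442 to 522 CPM in ok3407 and 461 to 524 CPM in the controls. Of 38 germ line genes 1 rose, spo-11, and that call did not hold. The 8 germ line markers summed to 1820 to 2030 CPM in ok3407 and 1910 to 2340 CPM in the controls. Of 7 tested sperm markers 0 were called. Of 118 genes on a wider sperm list 3 rose, nspd-11, nspe-6 and nspe-7, and 8 fell, all nspb and nspc genes. All these calls were thus in families of small nematode-specific peptides, and nspd-11 and nspe-6 were tested because of their reads in ok3407. Of the 8 falls 7 held, and 3 did not reach the filter on low counts in the 3 ok3407 libraries. The number of falls was 2 without ok3407 replicate 2, 4 without ok3407 replicate 3 or wild type replicate 3 and 12 without tm2655 replicate 1. The gene nspb-6 had 7.66, 7.64 and 8.55 CPM in ok3407 and 28 to 56.4 CPM in the controls (-2.25 ± 0.28, adjusted p = 0.000962).

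Of 27 sleep regulators 3 rose and 1 fell. Without ok3407 replicate 1 only nlp-8 of these was called, and without ok3407 replicate 2 nlp-8 and nlp-14. The neuropeptide gene nlp-8 had 20.5, 19.3 and 17.5 CPM in ok3407, against 9.41, 9.85 and 10.9 CPM in tm2655 and 9.64, 10.2 and 9.16 CPM in wild type (0.95 ± 0.12, adjusted p = 0.000871). The neuropeptide gene nlp-14 had 19.9, 17.3 and 18.6 CPM in ok3407 and 11 to 14 CPM in the controls (0.61 ± 0.12, adjusted p = 0.013). These were the only 2 calls among 64 neuropeptide genes, by edgeR. The EGF receptor gene let-23 rose by 0.79 ± 0.17, and egl-4, a cGMP-dependent protein kinase, had a log2 fold change of -0.46 ± 0.12, which was called in 4 of the 9 fits that left out 1 library and not with total library size (adjusted p = 0.0996). The gene flp-11, for peptides of the RIS sleep neuron, had 10.3, 10.5 and 12.6 CPM in ok3407 and 8.46 to 10.1 CPM in the controls and was not called (0.26 ± 0.14, adjusted p = 0.26). The receptor gene npr-12 had 3.55, 3.53 and 3.75 CPM in ok3407 and 1.77 to 2.52 CPM in the controls. No ok3407 library overlapped with a control there, but the adjusted p was 0.0603.

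Of 27 insulin-like peptide genes 4 rose, ins-20, ins-11, ins-4 and ins-7, and ins-33 fell. The gene ins-33 had 0.355, 0.706 and 0.611 CPM in ok3407 and 2.64 to 5.13 CPM in the controls (-2.63 ± 0.33, adjusted p = 0.00103). The gene ins-11 had 5.46, 6.35 and 3.53 CPM in ok3407 and 0.533 to 1.5 CPM in the controls (2.64 ± 0.32, adjusted p = 0.000858).

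Detoxification and stress genes were mixed. Cytochrome P450 genes rose in 4 and fell in 4 of 66 cases, near the 5.07% and 5.09% of all tested genes. The rises, 2 of which were tested because of reads in ok3407, numbered 2 without ok3407 replicate 1 or 2 or tm2655 replicate 2 or 3, and the falls 2 without ok3407 replicate 1 and 7 without tm2655 replicate 1. UDP-glucuronosyltransferases rose in 6 and fell in 6 of 60, and 4 of the rises held. Their rises numbered 0 without ok3407 replicate 2, 2 without tm2655 replicate 2 or 3 or wild type replicate 1 or 3, and 3 without ok3407 replicate 3 or wild type replicate 2. Glutathione S-transferases fell in 5 of 40 cases (3 without ok3407 replicate 1 or 3) and rose in 0 (1 without ok3407 replicate 3). Among the falls gst-26 was at 7.27, 17.4 and 17.8 CPM in ok3407 and 28.6 to 61.6 CPM in the controls (-1.63 ± 0.33, adjusted p = 0.0144). Another 1 of the 5 falls did not reach the filter on low counts in the 3 ok3407 libraries. Against wild type alone 0 of these genes fell, and against tm2655 alone 2. Of 19 heat shock genes 3 rose (1 in 6 of the 9 fits that left out 1 library), but only hsp-43, for a small heat shock protein, held, with 378, 321 and 184 CPM in ok3407 and 53.9 to 111 CPM in the controls (1.76 ± 0.27, adjusted p = 0.00367). Another of these rises, hsp-16.49, was tested because of its reads in ok3407. Of 20 endoplasmic reticulum stress genes 2 rose, dnj-27 and atf-6, but 0 without ok3407 replicate 1 or 2. The gene atf-6 was near the threshold (adjusted p = 0.0496) and was called in 1 of the 9 fits that left out 1 library, the one without tm2655 replicate 1. Nuclear hormone receptor genes rose in 11 and fell in 4 of 210 cases, shares near or below those of all genes. Of the 11 rises, 3 were tested because of their reads in ok3407 and 10 held, and 3 of the 4 falls held. The rises numbered 2 without ok3407 replicate 2, 6 without tm2655 replicate 2 and 7 without ok3407 replicate 1 or 3 or wild type replicate 3, and the falls 1 without ok3407 replicate 1 and 2 without ok3407 replicate 2 or 3, tm2655 replicate 2 or wild type replicate 1 or 3. Of 16 fatty acid desaturase and elongase genes edgeR called 0, with 4 at an unadjusted p under 0.05 and 3 called by DESeq2.

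**Figure D5:**
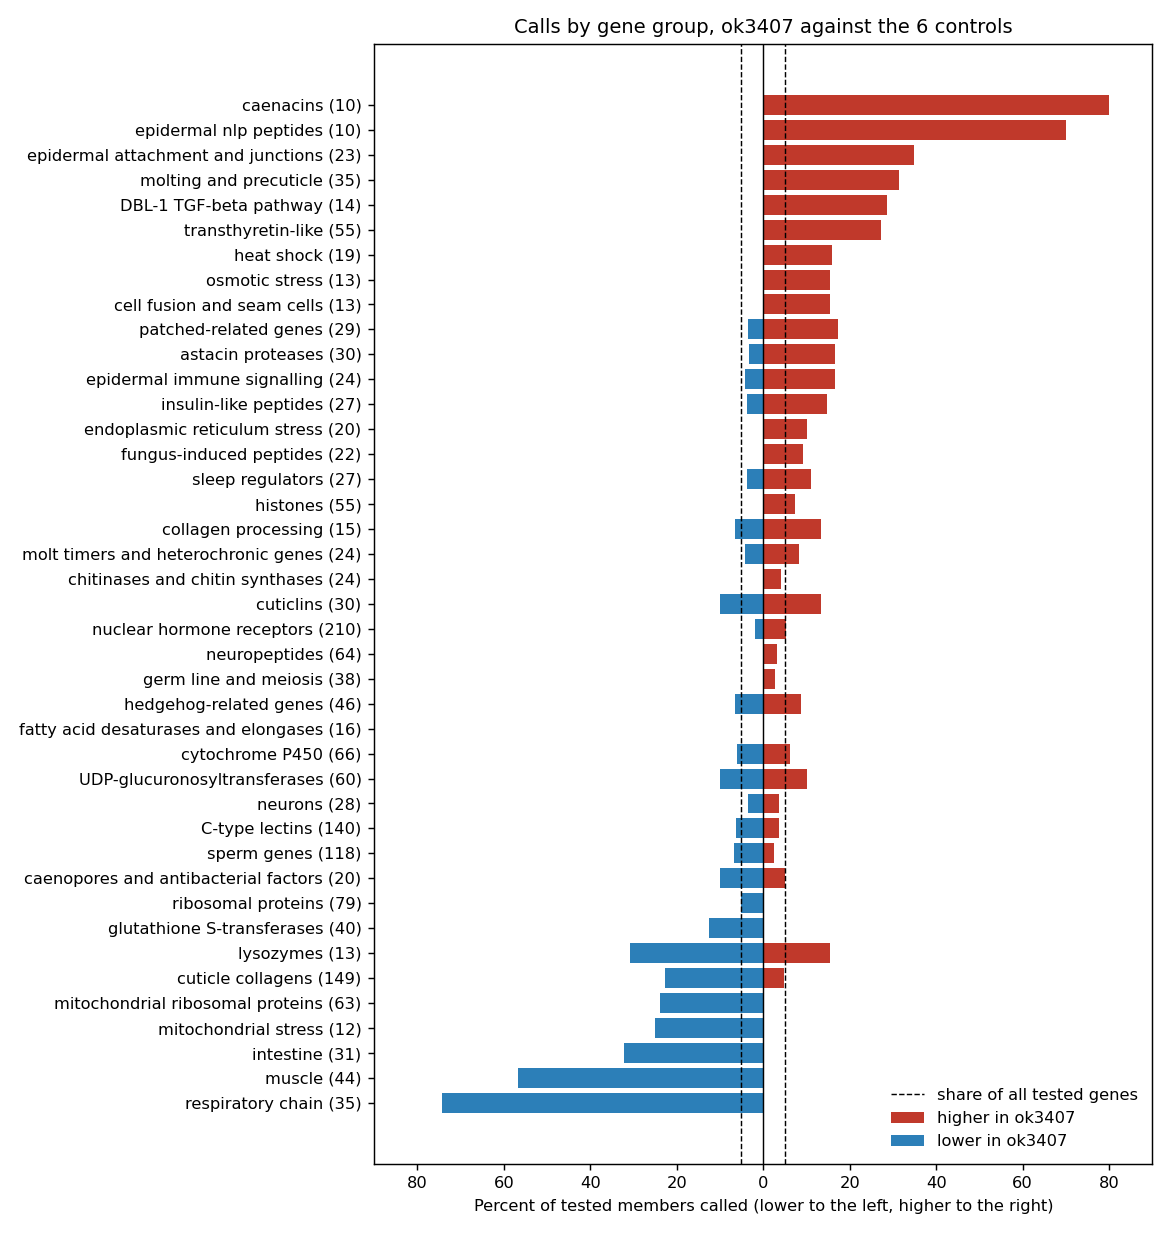
Percent of the tested members of each gene list called higher (right) or lower (left) in ok3407 against the 6 controls, for groups with at least 10 tested members, whose number is in brackets. Dashed lines mark the shares of all tested genes, 5.07% higher and 5.09% lower, and the longest bars are those of the caenacins on the right, where 5 of 10 members were tested because of their reads in ok3407, and of the respiratory chain on the left.

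Calls whose groups overlapped show what the pooled test passed without a clean separation. There were 77 such rises and 57 falls. The largest rises with a mean of at least 5 CPM were F35E12.5, M03F8.1 and C34C12.6. F35E12.5 had 58.9, 332 and 391 CPM in ok3407, against 70.8, 18.5 and 4.27 CPM in tm2655 and 14, 4.92 and 5.58 CPM in wild type (3.72 ± 0.94, adjusted p = 0.0368). Here tm2655 replicate 1 lay above 1 ok3407 library. The largest falls were ZK218.11, Y5H2A.4 and the dopamine receptor gene dop-4. ZK218.11 was read at 0.177, 0 and 0 CPM in ok3407, against 0.14, 12.6 and 3.66 CPM in tm2655 and 5.06, 17.4 and 23.2 CPM in wild type. As in F35E12.5, the control inside the range of ok3407 was tm2655 replicate 1.

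The comparisons of ok3407 with each control strain share the ok3407 libraries, and their values are given side by side. In the 3-group fit, 374 genes were higher (2.33%) and 271 lower (1.69%) in ok3407 than in tm2655, and 534 higher (3.33%) and 467 lower (2.91%) than in wild type. The log2 fold changes of nas-10 were 9.19 against tm2655 (adjusted p = 0.00661) and 7.26 against wild type (adjusted p = 0.0119). Those of col-19 were -2.31 (adjusted p = 0.00345) and -2.13 (adjusted p = 0.00503). For nlp-29 they were 3.14 (adjusted p = 0.0573) and 3.49 (adjusted p = 0.0355), and for ilys-3 4.71 (adjusted p = 0.0277) and 7.55 (adjusted p = 0.0118). For unc-54 they were -0.54 (adjusted p = 0.0701) and -0.74 (adjusted p = 0.0204), and for atp-2 -0.49 (adjusted p = 0.0818) and -0.55 (adjusted p = 0.0443). The differences between the 2 control strains in these 6 genes were not called.

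Leaving out single libraries moved the counts. Without ok3407 replicate 2 the calls were 441 higher and 286 lower, of which all were outside the range of the controls. Counts of lower genes were 413 without ok3407 replicate 1, 482 without tm2655 replicate 2 and 483 without wild type replicate 3. Without tm2655 replicate 1 they were 1154 higher and 1081 lower. Of the 737 rises that held, 382 (51.8%) held in all 9 fits that left out 1 library, and 714 (96.9%) under TMM and 3 other scalings. Of the 760 falls, 224 (29.5%) held in all 9 fits and 359 (47.2%) under all 4 scalings.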

How the data were processed

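Whole-animal mRNA was sequenced with a stranded kit and 75 cycles of paired-end reads, per the labels' protocols, in 3 libraries per group. The authors deposited whole-number counts of reads per gene (total, unique, exon and intron reads) and RPKM values, per the file headers. The sources used here do not give the aligner, counter, strand setting or genome build, so reads of overlapping or antisense genes may be shared. Against the WBcel235 annotation, 99.81% of 44688 matched gene names lay within 5000 bases.

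From the counts of total gene reads, edgeR 4.0.16 in R 4.3.3 (filterByExpr, TMM factors, robust quasi-likelihood F test) compared ok3407 with the 6 controls as 1 group. P-values were Benjamini-Hochberg adjusted over 16055 genes, with a threshold of 0.05, and errors of log2 fold changes were derived from the F statistic. A 3-group fit gave the comparisons with each strain, where tm2655 and wild type stay separate. CPM values use TMM-scaled totals, and intervals of ratios are exact and cover counting error only. The series' design text calls the replicates biological, and the labels give no batch. The fits were tested on simulated data.

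Named genes were the 10 largest changes and the 10 widest gaps per direction that held, and the 3 largest calls per direction whose groups overlapped, all with a mean of at least 5 CPM. To these came up to 3 genes per direction that held and had the smallest p in each of 45 lists, and 12 fixed genes. A call between tm2655 and wild type is given for any of them that had one. Another 30 genes, and the further list members given with values, were chosen after their values were seen. Members and lists were chosen with earlier results of these data known. Alternatives were 3 other scalings, 2 filters, DESeq2 1.42.0, limma 3.58.1 on log2(RPKM + 1), the 3-group contrast, a replicate block, each control strain alone, exon or unique reads, and leaving out each library.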

Additional observations from a re-analysis of the deposited data

Results flagged for a closer look

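Among the 6 control libraries, 1 library stood apart from the other 5 in 22 of 200 groups examined. There the ratio of its gap to the whole range exceeded Dixon's critical value. Chance flags about 1 in 20 groups where values are normally spread and groups independent. Here the ratios were taken from CPM, some of them very low, and all groups share the same 6 libraries. The count therefore cannot be set against that rate. In 9 of the 22 groups the library was tm2655 replicate 1, which was also the control nearest to ok3407 in more of the changes that held than any other control. Its level was the highest of the controls for B0284.1 (4.69 CPM, ratio 0.746), F35E12.5 (70.8 CPM, 0.786), clec-146 (6.89 CPM, 0.656), cnc-1 (0.105 CPM, 1.0), cnc-7 (3.36 CPM, 0.655), nas-9 (53.1 CPM, 0.685) and sta-2 (22.3 CPM, 0.874), all of which had positive fold changes in ok3407. It was the lowest for cut-4 (48.4 CPM, 0.66) and unc-95 (35.4 CPM, 0.747), which were lower in ok3407. Without tm2655 replicate 1 the log2 fold change of sta-2 was 1.4 (adjusted p = 0.00229 by edgeR), against 1.05 (adjusted p = 0.0949) with all 9 libraries.

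Wild type replicate 1 was the highest control for C30B5.6 (9.49 CPM, 0.747), F58G1.7 (4.43 CPM, 0.751), cnc-9 (0.237 CPM, 0.712), col-113 (350 CPM, 0.658), grl-4 (331 CPM, 0.649), hmr-1 (114 CPM, 0.689), ins-11 (1.5 CPM, 0.666), ins-20 (1.26 CPM, 0.715), nas-10 (3.0 CPM, 0.737), nlp-34 (22.8 CPM, 0.665) and nspd-11 (0.632 CPM, 0.779). It had the fewest gene reads, 13.8 M. Wild type replicate 2 was the highest control for C17H12.8 (208 CPM, 0.703) and tm2655 replicate 3 for clec-169 (ratio 0.677).

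Inside the control group the calmodulin-like gene cal-6 differed between the strains. It was read at 0.106, 0.0588 and 0.0678 CPM in ok3407, at 2.55, 3.1 and 3.25 CPM in tm2655 and at 0, 0.0296 and 0 CPM in wild type. Tm2655 had 262 reads and wild type 1, a ratio of 202 after scaling with a 95% counting interval of 35.9 to 8000. The log2 fold change of tm2655 against wild type was 7.32 (adjusted p = 0.00825, edgeR's quasi-likelihood test), and ok3407 against the pooled controls gave -4.25 (adjusted p = 0.175). The gene lies on the same chromosome as nas-38, at X:139221-139640.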

How the results depend on the processing

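Against 814 higher and 817 lower genes, of which 737 and 760 held, scaling by total library size gave 1286 and 385 (1159 and 359 held), limma 1103 and 478 (1019 and 438 held) and DESeq2 1125 and 1388. With wild type as the only controls 491 were higher and 317 lower, and with tm2655 only 273 and 117, all outside the range of those controls, where fewer libraries are compared. The share of calls that were higher was 77.0%, 69.8%, 60.8% and 70.0% under total library size, limma, wild type only and tm2655 only, against 49.9%. It was 60.8% without ok3407 replicate 1 and 60.7% without ok3407 replicate 2. For the other settings the counts stayed within 1.5 times, from 680 to 808 higher and 682 to 826 lower. Leaving out 1 library gave 441 to 1154 higher and 286 to 1081 lower, with 441 to 1073 and 286 to 1050 held, the lowest without ok3407 replicate 2 and the highest without tm2655 replicate 1. Lower genes numbered 413 without ok3407 replicate 1, 482 without tm2655 replicate 2 and 483 without wild type replicate 3. The 1 gene called between tm2655 and wild type became 4 with DESeq2 and 0 with exon reads, the 5 CPM filter or the replicate block, and 0 or 1 without 1 library. For these shifts the cause was not tested.

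Correlations of deviations from the group mean were -0.24 to 0.4 between libraries of the same replicate number and -0.4 to 0.33 between different numbers. With 3 libraries per group these values cannot show whether replicate numbers pair the libraries. With the replicate block the calls were 775 higher and 762 lower. Over 197 named genes and all alternatives, 3661 values kept direction and call, 613 lost the call, 17 gained it and 1 changed sign, dbl-1, at 0.03 with total library size, against -0.16. The gene nas-38 was called in the 3-group contrast, by DESeq2 (adjusted p = 0.0213), by limma (0.0242), with total library size (0.0495), with tm2655 only (0.0024) or wild type only (0.0418) as controls, and without wild type replicate 1 (0.0309), but not in the other fits that left out 1 library (up to 0.185). With 3 libraries of ok3407, small changes and low counts were the least certain, and a gene not called is not shown to be unchanged.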

Other observations

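Genes whose changes held were in part next to each other on the chromosomes. Of the 737 rises, 180 (24.4%) had a neighbour among tested genes that also held as a rise, and of the 760 falls 158 (20.8%) had one that held as a fall. Over all 16055 tested genes, 8.79% lay next to such a rise and 9.17% next to such a fall. The longest runs of rises had 4 genes, which were T20D4.15, T20D4.12, T20D4.11 and T20D4.10 on chromosome V, the peptide genes nlp-34, nlp-31, nlp-30 and nlp-29 on chromosome V, and C45B2.3, C45B2.2, C45B2.1 and C45B2.8 on chromosome X. In the last of these, C45B2.2 had 1010, 796 and 636 CPM in ok3407, against 17.1 to 91.1 CPM in the controls (log2 fold change 4.17 ± 0.47, edgeR adjusted p = 0.000954), and C45B2.1 had 622, 428 and 466 CPM in ok3407, against 118 to 285 CPM in the controls. C45B2.8 had 43.7, 48.1 and 43 CPM in ok3407, against 12.4 to 21.4 CPM in the controls. Thus the 4 neighbours rose by 5.76, 4.17, 1.5 and 1.43 on the log2 scale. The only run of 4 falls was col-92, col-93, col-94 and W05B2.7 on chromosome III, and 3 other genes of the T20D4 group, T20D4.5, T20D4.4 and T20D4.3, held as falls in a row.

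By chromosome, 3.4%, 4.31%, 3.38%, 4.78%, 5.92% and 5.41% of the tested genes of I, II, III, IV, V and X held as rises, and 3.79%, 4.6%, 4.49%, 4.02%, 4.89% and 6.88% as falls. Within 500 kb of nas-38, 4 of 134 tested genes held as rises and 6 as falls.

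Histone genes gave 4 rises and 0 falls among 55, of which 3 rises held. The gene his-24, which encodes a linker histone, had 17.3, 21 and 42.7 CPM in ok3407 and 6.6 to 15.8 CPM in the controls (1.32 ± 0.30, adjusted p = 0.0222 by edgeR). Of the reads of his-15 and his-54, 0% and 14.9% were unique, so these calls cannot be assigned to 1 gene. The rises numbered 1 without ok3407 replicate 3, 2 without ok3407 replicate 1 or tm2655 replicate 2 and 6 without tm2655 replicate 1. Osmotic stress genes rose in 2 of 13 cases, nlp-29 and osm-11, the second of which was called in 3 of the 9 fits that left out 1 library. Of 24 molt timers and heterochronic genes 2 rose, myrf-2 and pan-1, and 1 fell, elt-3, and 0 of the 3 were called without ok3407 replicate 2.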
